A study of Mus musculus with 18 samples.

Results

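Cox6a2, Angptl6, Syt6, Ncs1 and Lama5 are 5 of the 14695 genes in a count table from mouse CD8+ T cells. They were picked because the effect of halofuginone on them was much lower in one or both of 2 knockouts than in control cells. No threshold was stated for "much lower". The choice therefore used the drug effects in all 3 genotypes, and the levels and fold changes of these 5 genes are given below as a description, with no test.

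The libraries came from poly(A) RNA of primary CD8+ T cells of mouse spleen and lymph node, edited with CRISPR/Cas9. There were 3 targets: Rosa26, a site whose editing serves as the neutral control, Atf4 and Cebpg. Cells of each target were cultured for 24 hours with or without halofuginone, which gave 6 groups of 3 libraries each: untreated Rosa26, Rosa26 with halofuginone, untreated Atf4 knockout, Atf4 knockout with halofuginone, untreated Cebpg knockout and Cebpg knockout with halofuginone. All cells, controls included, had gone through CRISPR/Cas9 editing. The labels name no strain, age, guide or drug concentration, and leave it unsaid if a group's 3 libraries stem from different mice or cultures. Their spread, on which all p-values rest, may thus be technical.

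Halofuginone blocks the prolyl-tRNA synthetase, and the uncharged tRNA that builds up activates the kinase GCN2. GCN2 phosphorylates the initiation factor eIF2α, which lowers general translation and favours translation of ATF4, a bZIP transcription factor. ATF4 binds DNA as a dimer, and C/EBPγ, the product of Cebpg, is one of its partners at genes for amino acid uptake and synthesis. In T cells this amino acid response is known to act on proliferation and function when amino acids are short.

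The 5 genes have unlike products. Cox6a2 encodes the heart and skeletal muscle form of subunit 6A of cytochrome c oxidase, the last complex of the respiratory chain. Angptl6 encodes a secreted angiopoietin-like protein. Syt6 encodes a synaptotagmin, a membrane protein with C2 domains that takes part in vesicle fusion. Ncs1 encodes neuronal calcium sensor 1, a calcium-binding protein with EF hands. Lama5 encodes the laminin α5 chain of basement membranes, which leukocytes meet in vessel walls. In RefSeq, Cox6a2 lies on chromosome 7, Angptl6 on chromosome 9, Syt6 on chromosome 3, and Ncs1 and Lama5 on chromosome 2.

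Libraries held between 14.2 and 20.3 M counts (M, mega), with a median of 16.9 M. Levels are given as CPM (counts per M counts of a library, after scaling), on which a single count was worth 0.0493 to 0.0705. The targeted transcripts were present in every group: Atf4 ranged from 256 to 428 CPM and Cebpg from 52.8 to 183 CPM over the 18 libraries, and untreated Atf4 knockout cells had 285 ± 14.4 CPM of Atf4 (SD, n = 3) against 268 ± 12.5 in untreated Rosa26 cells. The transcript level of an edited gene need not drop, so these values do not check the knockout labels. All 10 CD8 T cell markers were measured, and their summed level was 3387 to 4614 CPM. Of other cell types, 2 of 8 B cell markers (summed level 3.18 to 7.65 CPM), 1 of 10 myeloid markers (Cd68, 2.24 to 6.87 CPM), 3 of 13 muscle markers (8.78 to 13.1 CPM) and 3 of 9 neuronal markers (4.70 to 15.0 CPM) were measured, the rest not being analysed here. In 3 treated libraries, Rosa26 replicate 2, Atf4 knockout replicate 3 and Cebpg knockout replicate 3, Malat1, a nuclear RNA, was at 672 to 1960 CPM, against 2074 to 3580 CPM in the other 6. Without these 3 libraries, the difference in drug effect between knockout and Rosa26 cells kept its direction for all 5 genes, at -1.44, -1.73, -2.71, -1.75 and -1.61 on the log2 scale in Atf4 knockout and -3.42, -2.06, -2.16, -0.89 and -1.08 in Cebpg knockout cells for Cox6a2, Angptl6, Syt6, Ncs1 and Lama5. The 3 untreated Rosa26 libraries, at 858 to 1168 CPM of Malat1, were low too and were kept. This omission therefore cannot separate the differences from that library measure, whose part was not tested.

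The promoter windows below show the 250 bases before the annotated start of 3 of the genes, beside that of Asns, a known ATF4 target. They are shown because ATF4 with a C/EBP partner is known to bind the C/EBP-ATF response element, written TGATGNAA. The sequences are from RefSeq, build GRCm38.p6, each written 5′ to 3′ on the strand of its gene, and capitals mark a match to that element.
Angptl6, chr9:20879711-20879960, minus strand: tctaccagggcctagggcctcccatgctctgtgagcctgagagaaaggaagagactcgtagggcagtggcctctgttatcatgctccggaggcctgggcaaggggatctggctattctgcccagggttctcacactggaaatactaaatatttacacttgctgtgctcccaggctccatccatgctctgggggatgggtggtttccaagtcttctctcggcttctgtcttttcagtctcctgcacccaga
Lama5, chr2:180225860-180226109, minus strand: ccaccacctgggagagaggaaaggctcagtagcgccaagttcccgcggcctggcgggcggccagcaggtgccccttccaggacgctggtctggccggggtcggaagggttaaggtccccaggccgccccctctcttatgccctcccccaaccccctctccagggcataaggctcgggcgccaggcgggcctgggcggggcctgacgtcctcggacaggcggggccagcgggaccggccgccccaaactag
Ncs1, chr2:31245673-31245922, plus strand: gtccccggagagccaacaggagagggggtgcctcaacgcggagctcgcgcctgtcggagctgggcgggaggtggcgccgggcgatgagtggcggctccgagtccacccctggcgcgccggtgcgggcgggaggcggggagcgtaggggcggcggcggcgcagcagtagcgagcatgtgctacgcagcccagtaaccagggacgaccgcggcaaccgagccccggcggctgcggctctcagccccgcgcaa
Asns, chr6:7693210-7693459, minus strand: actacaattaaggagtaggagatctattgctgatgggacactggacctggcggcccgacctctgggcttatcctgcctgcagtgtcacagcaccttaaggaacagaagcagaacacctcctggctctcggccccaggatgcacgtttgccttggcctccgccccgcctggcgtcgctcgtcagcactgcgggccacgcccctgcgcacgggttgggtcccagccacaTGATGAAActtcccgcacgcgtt

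Asns held 1 match, TGATGAAA, 23 bases before its start. No match was found in the windows of Angptl6, Syt6 (3 annotated starts), Ncs1 or Lama5 on either strand. Of 32851 RefSeq windows of this length, 3.45% held TGATGNAA. Counted by gene, 3.91% of 27025 genes held it in at least 1 window. Of the 21 genes of a list of ATF4 pathway genes with a window, 5 did (Asns, Atf3, Chac1, Nupr1 and Vldlr). Neither the cyclic AMP response element TGACGTCA (1.55% of windows), TGACGNAA (1.39%), TTGCGCAA (0.164%) nor TTGCNNAA (9.56%), which overlaps TTGCGCAA, was found in the members' windows. These results concern the letters in the 250 bases alone, and Cox6a2 was not searched.

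The 5 genes fell into 3 patterns of levels. Cox6a2 and Angptl6 had overlapping levels in the 3 untreated groups, at few counts for Cox6a2, and reached a lower level with drug in both knockouts. Syt6 and Lama5 were already higher in untreated knockout cells, and with drug they were at or above the Rosa26 level. Ncs1 differed little with drug in Rosa26 cells and was lower with drug in both knockouts.

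Cox6a2 stood at 0.36, 0.06 and 0.17 CPM in the untreated Rosa26 libraries (6, 1 and 3 counts) and at 5.04, 6.95 and 4.36 CPM with halofuginone (104, 112 and 70 counts). The muscle isoform of a respiratory subunit was thus near the detection floor in control cells and clearly present in all 3 treated libraries. The Atf4 knockout libraries had 0.25, 0.12 and 0 CPM untreated and 0.92, 1.31 and 1.25 CPM with drug. The Cebpg knockout libraries had 0.40, 0.23 and 0.27 CPM untreated and 0.82, 0.48 and 0.56 CPM with drug. The 3 untreated groups overlapped with their neighbours in order of level, and each treated group lay apart from every other group, in rising order Cebpg knockout, Atf4 knockout and Rosa26. In such bulk samples, fewer cells that express a gene and less RNA per cell cannot be told apart.

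The log2 fold change of Cox6a2 with drug was 4.75 ± 0.50 (standard error of the edgeR fit, n = 3 against 3, here and below) in Rosa26 cells, 3.16 ± 0.58 in Atf4 knockout cells and 1.04 ± 0.53 in Cebpg knockout cells. The summed counts gave ratios of 27.7 (95% interval 14.9 to 58.4), 9.42 (4.07 to 26.7) and 2.11 (1.10 to 4.22), intervals that cover counting error only. Because the untreated counts were so low, the levels with drug describe Cox6a2 better than its folds. Treated Atf4 knockout cells had 21.3% of the treated Rosa26 mean and treated Cebpg knockout cells 11.4%, which are log2 differences of -2.22 ± 0.40 and -3.11 ± 0.43. The drug effect in Atf4 knockout minus that in Rosa26 was -1.58 ± 0.91, and single libraries of few counts set its size: it was -0.66 without Atf4 knockout untreated replicate 1 and -2.31 without Rosa26 untreated replicate 1. The same difference for Cebpg knockout was -3.71 ± 0.77 and ranged from -4.43 to -3.30 with any 1 library left out. Of the 13 muscle markers, Mylpf, Tnnt3 and Cox7a1 were measured, and did not move together. With drug, Tnnt3, a troponin, rose by 1.70 ± 0.25 on the log2 scale in Rosa26, 2.15 ± 0.24 in Atf4 knockout and 2.34 ± 0.24 in Cebpg knockout cells (edgeR adjusted p = 1.2e-05, 2.7e-07 and 1.1e-07). Mylpf, a myosin light chain, and Cox7a1, another muscle oxidase subunit, were not called in Rosa26 cells (-0.35 ± 0.18 and -0.96 ± 0.55) and fell in both knockouts. The log2 changes in Atf4 and Cebpg knockout cells were -0.74 ± 0.19 and -0.80 ± 0.19 for Mylpf (edgeR adjusted p = 0.00283 and 0.00151) and -1.94 ± 0.59 and -2.35 ± 0.65 for Cox7a1 (0.00933 and 0.00479). The call for Cox7a1 in Atf4 knockout cells ended without untreated Atf4 knockout replicate 1 (edgeR adjusted p = 0.09003). Between treated groups, edgeR called Tnnt3 higher and Mylpf lower in each knockout than in Rosa26 cells. In Cebpg knockout cells both of these calls ended without treated Cebpg knockout replicate 1 (edgeR adjusted p = 0.0529 and 0.0579), and that for Tnnt3 also without treated Rosa26 replicate 2 (0.0714). Their part in the levels of Cox6a2 was not tested, and Tnnt3 and Cox7a1 were named after their values were seen.

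Angptl6 showed the same pattern at levels that leave less counting error. Its 3 untreated Rosa26 libraries had 3.48, 3.83 and 3.31 CPM and the 3 treated ones 32.4, 36.1 and 34.5 CPM. Atf4 knockout libraries had 4.31, 3.69 and 3.97 CPM untreated and 11.5, 11.2 and 13.3 CPM with drug. Cebpg knockout libraries had 4.47, 2.76 and 4.25 CPM untreated and 8.74, 8.58 and 8.89 CPM with drug. All 9 treated libraries lay above all 9 untreated ones, the untreated groups overlapped, and the treated groups did not overlap with each other.

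For Angptl6 the log2 fold change with drug was 3.28 ± 0.14 in Rosa26, 1.59 ± 0.14 in Atf4 knockout and 1.19 ± 0.14 in Cebpg knockout cells. The gain in level was 30.8 CPM in Rosa26 cells against 8.01 and 4.91 CPM in the knockouts. Treated knockout cells reached 35.0% (Atf4) and 25.4% (Cebpg) of the treated Rosa26 mean. Among all 14695 genes ordered from the lowest log2 difference between treated Cebpg knockout and treated Rosa26 cells, Cox6a2 was number 2 and Angptl6 number 13. These ranks are a description, since that difference is part of the contrast on which the genes were picked. For Cox6a2 the rank rests on 30 counts in all treated Cebpg knockout libraries together.

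Syt6 differed from these first of all in untreated cells. The untreated Rosa26 libraries had 0, 0.30 and 0.17 CPM (0, 5 and 3 counts), the untreated Atf4 knockout libraries 1.79, 3.75 and 2.85 CPM, and the untreated Cebpg knockout libraries 1.02, 0.69 and 1.69 CPM. Both knockouts thus lay above the control without any drug. With halofuginone the Rosa26 libraries had 1.99, 3.23 and 2.80 CPM, the Atf4 knockout libraries 6.39, 6.12 and 5.19 CPM, and the Cebpg knockout libraries 3.17, 4.12 and 5.001 CPM. Untreated Atf4 knockout cells overlapped with treated Rosa26 cells, and treated Atf4 knockout cells were above every other group.

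The log2 fold change of Syt6 with drug was 4.03 ± 0.52 in Rosa26, 1.07 ± 0.35 in Atf4 knockout and 1.86 ± 0.38 in Cebpg knockout cells. On the CPM scale the gain was not smaller in the knockouts: it was 2.52 CPM in Rosa26, 3.10 CPM in Atf4 knockout and 2.96 CPM in Cebpg knockout cells. The lower fold of Syt6 therefore went with a higher starting level, by 4.10 ± 0.52 on the log2 scale in Atf4 knockout and 2.78 ± 0.57 in Cebpg knockout cells. Summed untreated counts gave ratios to Rosa26 of 18.02 (8.89 to 42.6) and 7.06 (3.34 to 17.2), again for counting error only. With 1 library left out, the difference of the drug effects ranged from -3.75 to -2.40 for Atf4 knockout and from -2.96 to -1.62 for Cebpg knockout.

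Lama5 had the same order in untreated cells at levels several times higher. It stood at 3.96, 3.77 and 4.88 CPM in untreated Rosa26, at 12.7, 13.4 and 13.6 CPM in untreated Atf4 knockout and at 9.23, 8.23 and 11.01 CPM in untreated Cebpg knockout libraries. With drug the libraries had 16.2, 15.7 and 15.8 CPM in Rosa26, 15.9, 17.0 and 12.5 CPM in Atf4 knockout, and 19.0, 14.9 and 18.1 CPM in Cebpg knockout cells. The 3 treated groups overlapped, whereas the 3 untreated groups did not.

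For Lama5 the log2 fold change with drug was 1.92 ± 0.14 in Rosa26, 0.19 ± 0.13 in Atf4 knockout, where treated and untreated libraries overlapped, and 0.87 ± 0.13 in Cebpg knockout cells. The knockouts differed from Rosa26 by 1.65 ± 0.15 (Atf4) and 1.17 ± 0.15 (Cebpg) untreated, and by -0.07 ± 0.13 and 0.12 ± 0.13 with drug. The treated difference for Atf4 knockout, -0.07, was 0.08 without treated Atf4 knockout replicate 3. Untreated Atf4 knockout cells already had 83.1% and untreated Cebpg knockout cells 59.6% of the treated Rosa26 level. The name knockout-sensitive thus holds for the folds of Syt6 and Lama5 and not for a lower level with drug.

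A library measure moved with the untreated levels of Syt6 and Lama5. The share of counts in the 829 genes of the annotation class TEC, transcripts still without experimental proof, was 0.09997% to 0.133% in the 3 untreated Rosa26 libraries and 0.194% to 0.250% in the 6 untreated knockout libraries. Malat1 was 858 to 1168 CPM in the former and 2026 to 2606 CPM in the latter. All 3 untreated Rosa26 libraries were low, so this measure and the genotype cannot be told apart in untreated cells. Among treated libraries, Rosa26 replicate 2 had the lowest share, 0.0542%, with Lama5 at 15.7 CPM and Syt6 at 3.23 CPM, both above all 3 untreated Rosa26 libraries. Atf4 knockout replicate 3 had the next lowest share, 0.0735%, and the lowest Lama5 (12.5 CPM) and Syt6 (5.19 CPM) of its group, above the untreated Rosa26 libraries as well. Both of these treated libraries also differ from the untreated Rosa26 libraries by the drug, so they cannot separate this measure from treatment. The part of this measure in the levels was not tested. Pecam1, the measured one of 11 stromal and endothelial markers, was 27.2 to 28.5 CPM in untreated Rosa26 and 31.8 to 42.7 CPM in untreated knockout libraries, and its part in the result was not tested.

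**Figure D1:**
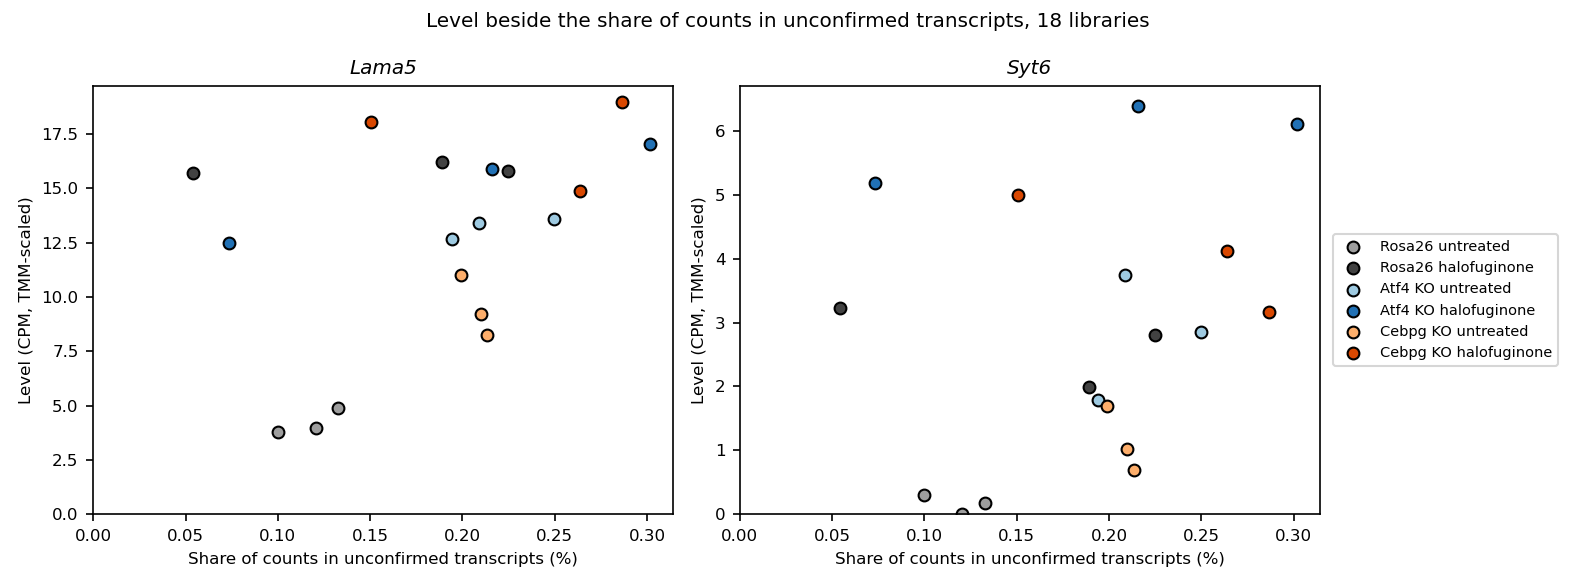
Level of Lama5 and Syt6 (CPM) against the percentage of each library's counts in genes of the annotation class TEC (transcripts still without experimental proof), 1 point a library. The 3 untreated Rosa26 libraries are low on both axes. The treated Rosa26 library with the lowest share, 0.0542%, has 15.7 CPM of Lama5, but it differs from them by the drug as well.

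Ncs1 was not clearly induced in control cells. Its Rosa26 libraries had 5.10, 4.61 and 6.51 CPM untreated and 7.46, 6.02 and 8.34 CPM with drug, which overlapped, and its log2 fold change was 0.43 ± 0.17. Atf4 knockout libraries had 7.46, 8.37 and 6.96 CPM untreated and 3.93, 2.62 and 3.94 CPM with drug, a log2 fold change of -1.12 ± 0.18. Cebpg knockout libraries had 5.95, 6.10 and 6.62 CPM untreated and 4.59, 5.22 and 4.93 CPM with drug, a log2 fold change of -0.34 ± 0.18. The label of a drug-induced gene thus rests for Ncs1 on a small difference. The fall in Cebpg knockout cells was small as well, and the fall in Atf4 knockout cells is its main feature. Treated knockout cells had 48.1% (Atf4) and 67.5% (Cebpg) of the treated Rosa26 level. Over all genes, 51 of the 3461 called higher with drug in Rosa26 cells (1.47%) were called lower with drug in Atf4 knockout cells, and 23 (0.665%) in Cebpg knockout cells. No call is used for Ncs1, so it is not placed among these genes.

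In Rosa26 cells the treated libraries of 4 of the 5 genes all lay above the untreated ones, as did those of 27.2% of all genes. In Atf4 knockout cells this held for 3 of the 5 (25.4% of all genes), and Ncs1 lay wholly below (28.9% of all genes). In Cebpg knockout cells it held for 4 of the 5 (28% of all genes), and Ncs1 again lay wholly below (32.7%). Between untreated groups, Syt6, Ncs1 and Lama5 lay wholly above Rosa26 in Atf4 knockout cells (24.2% of all genes), and Syt6 and Lama5 did in Cebpg knockout cells (19.3%). Between treated groups, Cox6a2, Angptl6 and Ncs1 lay wholly below Rosa26 in both knockouts (18.3% of all genes in Atf4 and 20% in Cebpg knockout cells), and Syt6 lay wholly above in Atf4 knockout cells (15.6%). As the genes were picked on these contrasts, nothing is read from the counts.

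The wider set of induced genes shows where both patterns stand. In Rosa26 cells, 1020 genes (6.94% of all) were called higher at an adjusted p under 0.05 and at least 2-fold higher. As this class was chosen on the untreated and treated Rosa26 libraries, which also enter each knockout difference, its values are a description. Their median difference between untreated knockout and untreated Rosa26 cells was 0.71 on the log2 scale in Atf4 knockout and 0.43 in Cebpg knockout cells, against 0.02 and 0.01 over all genes. Of the 1020, 479 (47.0%) were called higher in untreated Atf4 knockout cells and 146 (14.3%) in untreated Cebpg knockout cells, the pattern of Syt6 and Lama5, against 11.7% and 2.71% of all genes. Here too, genotype cannot be told apart from the low TEC share and Malat1 of the untreated Rosa26 libraries. Both counts depended on the libraries: they were 901 and 564 without the 3 treated libraries low in Malat1 (Rosa26 replicate 2, Atf4 knockout replicate 3 and Cebpg knockout replicate 3), and the count for Cebpg knockout ranged from 63 (without its untreated replicate 2) to 225 (without Atf4 knockout treated replicate 3). With drug, 48 (4.71%) were called lower in Atf4 knockout and 44 (4.31%) in Cebpg knockout cells, the pattern of Cox6a2 and Angptl6, against 16.3% and 13.1% of all genes. Of the 218 whose drug effect was lower by at least 2-fold in Atf4 knockout cells, 109 were called higher untreated, 23 were called lower with drug, and 1 of these was called both. Of the 153 so chosen for Cebpg knockout cells, 23 were called higher untreated, 23 lower with drug, and 2 of these both. Neither call was made for 87 of the 218 and 109 of the 153, so many fell in neither pattern by call. The counts for both knockouts share the Rosa26 libraries.

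**Figure D2:**
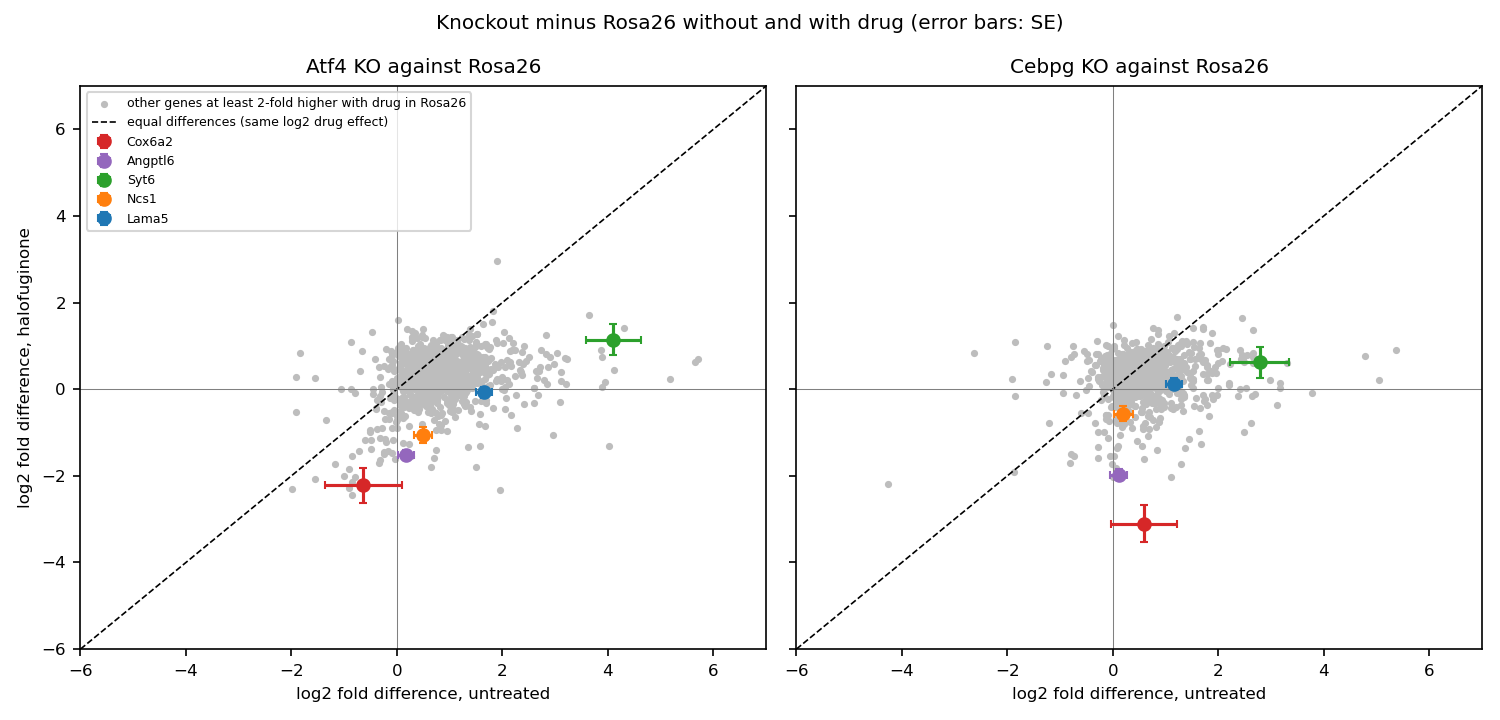
Log2 difference between knockout and Rosa26 cells with halofuginone (vertical axis) against that without drug (horizontal axis), for Atf4 and Cebpg knockout, with the genes induced at least 2-fold in Rosa26 cells as small points and the 5 genes named. Angptl6 lies low at untreated differences of 0.17 and 0.11 (Atf4 and Cebpg knockout). Cox6a2 also lies low, at untreated differences of -0.64 ± 0.73 and 0.60 ± 0.63, which rest on few counts. Syt6 and Lama5 lie to the right, Lama5 at a treated difference of -0.07 and 0.12.

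The drug effects in the knockouts were also set side by side. The drug effect in Cebpg knockout minus that in Atf4 knockout cells was -2.12 ± 0.82 for Cox6a2 and -0.40 ± 0.20 for Angptl6. It was 0.79 ± 0.52 for Syt6, 0.78 ± 0.25 for Ncs1 and 0.68 ± 0.19 for Lama5. The value was below 0 for Cox6a2 and Angptl6 and above 0 for the others. Across the whole table, edgeR called 2 genes in this comparison (0.0136%). The 5 genes were picked on the drug effects, so their values are a description, and no difference between the knockouts is claimed for any of the 5.

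Per length of annotated exons, the treated Rosa26 levels were 21.7 CPM per kilobase for Angptl6, 8.01 for Cox6a2, 1.56 for Ncs1, 1.40 for Lama5 and 0.458 for Syt6. Lama5, whose exons cover 11.4 kilobases, thus ranked below Cox6a2 on this scale, although its CPM was higher.

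The genes with the most similar profile were found among 11040 candidates by the root-mean-square distance between centred log2 CPM over the 6 group means. Angptl6 was closest to Atf5, a bZIP factor of the same stress response, at a distance of 0.042. Atf5 had 10.4 ± 2.22 and 100 ± 14.6 CPM in untreated and treated Rosa26 cells, 12.4 ± 0.217 and 34.2 ± 5.59 in Atf4 knockout cells, and 11.3 ± 1.37 and 24.8 ± 1.42 in Cebpg knockout cells (SD, n = 3). Trib3, a pseudokinase of the ATF4 pathway, followed at 0.290 and Niban1 at 0.324. Atf5 and Trib3, both known stress-response genes, stood nearest to Angptl6. The order was the same over the 18 single libraries, which are the same data and no separate check. Angptl6, like the other picked genes, was chosen on drug effects that shape its profile. Genes with similar drug effects can therefore lie near it because of that choice. The distances here and below are a description, with no test.

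For Cox6a2 the nearest genes were Slc6a9, a glycine transporter, at 0.432, Zbtb7b, a transcription factor of T cell lineage choice, at 0.480, and Angptl6 at 0.482. Slc6a9 had 2.41 ± 0.409 and 29.8 ± 1.63 CPM in Rosa26, 1.28 ± 0.192 and 6.15 ± 1.71 in Atf4 knockout and 2.49 ± 0.243 and 8.49 ± 0.300 in Cebpg knockout cells, untreated and treated. Over single libraries Angptl6 itself was nearest to Cox6a2.

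Lama5 was nearest to Zfr2 at 0.102, Chrnb1, a subunit of the muscle acetylcholine receptor, at 0.110, and H3f3aos at 0.141. Chrnb1 had 0.662 ± 0.275 and 2.72 ± 0.520 CPM in Rosa26 cells, 2.45 ± 0.123 and 3.10 ± 0.437 in Atf4 knockout and 1.89 ± 0.421 and 3.17 ± 0.119 in Cebpg knockout cells. As for Lama5, its untreated knockout levels were near the treated Rosa26 level. Ncs1 was nearest to Pafah2 at 0.109, Tsacc at 0.110 and Enah, an actin regulator, at 0.118. Syt6 had no close match: Igha, an immunoglobulin heavy chain constant gene, stood nearest at 0.547, with Ankrd55 at 0.555 and Rnaset2a at 0.564. Igha had 2.54 ± 0.697, 8.10 ± 0.486 and 5.88 ± 0.722 CPM in untreated Rosa26, Atf4 knockout and Cebpg knockout cells, and the 2 measured B cell markers summed to at most 7.65 CPM in any library. Over single libraries Igha and Chrnb1 were still among the 3 nearest to Syt6 and Lama5, whereas most other names changed.

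**Figure D3:**
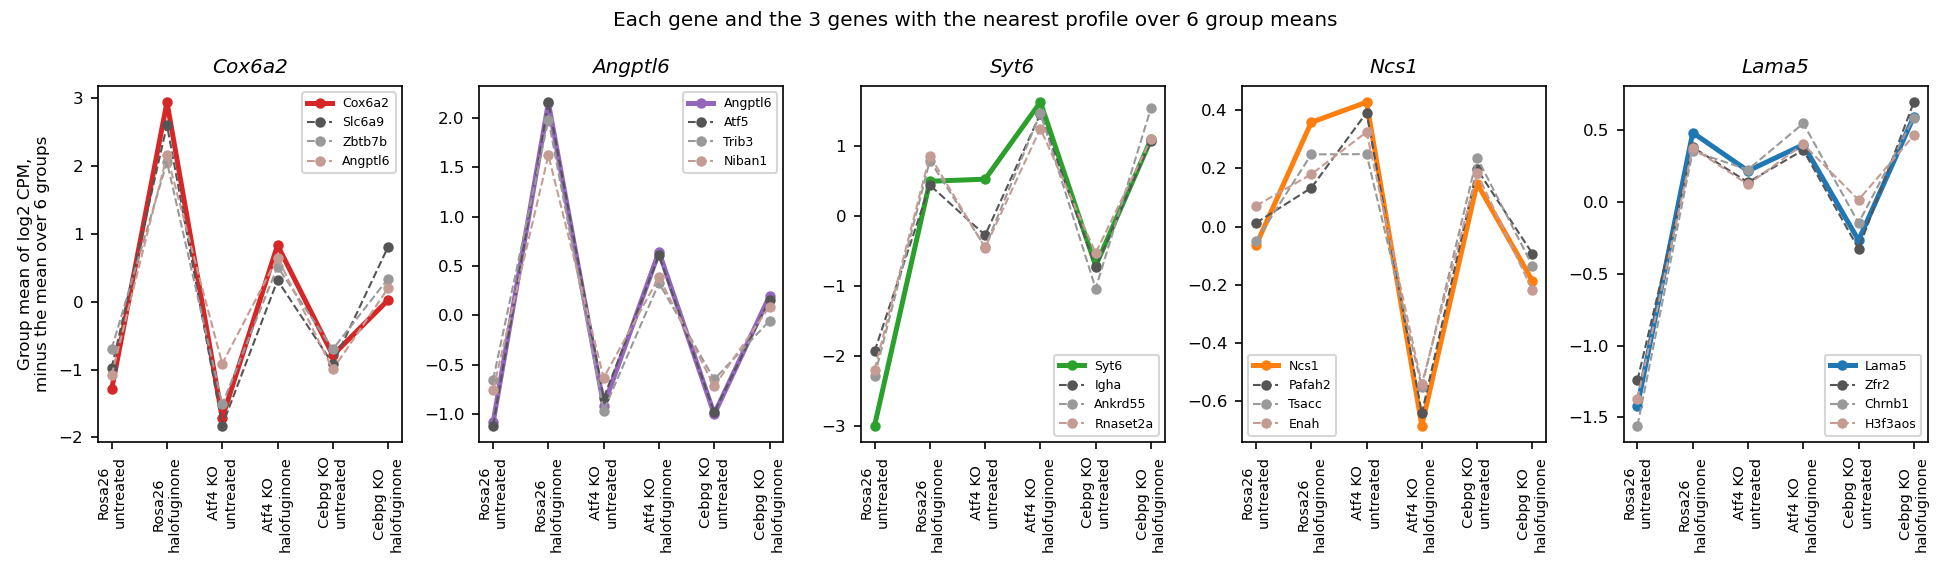
Centred log2 CPM of each of the 5 genes and its 3 nearest genes over the 6 group means, 1 panel a gene. The lines of Angptl6 and Atf5 nearly coincide, at a distance of 0.042, whereas those of Syt6 and its nearest gene, Igha, lie 0.547 apart.

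Relatives of the 5 genes were tested beside them, without the 5 in any count or median. Of 17 other measured cytochrome c oxidase genes, 1 was called higher with drug in Rosa26 cells and 9 lower (edgeR, Benjamini-Hochberg adjusted p under 0.05 over all genes, of which 23.6% were called higher and 24.1% lower). Their median log2 change was -0.59, against 0.02 for all genes. Cox6a1, the widely expressed form of the subunit that Cox6a2 replaces in muscle, fell from 193 ± 9.36 to 135 ± 20.0 CPM in Rosa26 cells (log2 change -0.51 ± 0.12, edgeR adjusted p = 0.00135). It also fell in Atf4 knockout (-0.82 ± 0.12) and Cebpg knockout cells (-0.87 ± 0.12). The member that rose was Cox7a2l, a supercomplex assembly factor, by 0.76 ± 0.12 on the log2 scale (edgeR adjusted p = 5.1e-05). Between treated groups, edgeR called 6 of the 17 lower in Atf4 knockout and 5 in Cebpg knockout than in Rosa26 cells, and none higher. Of all genes, 16.3% and 13.1% were called lower and 11.8% and 5.74% higher. Cox6a1 was called lower in both, at -0.55 ± 0.12 and -0.53 ± 0.12 on the log2 scale. In the differences of drug effect edgeR called none of the 17 for either knockout, where 6.42% (Atf4) and 2.47% (Cebpg) of all genes were. At an unadjusted p under 0.05 it was 1 in each knockout, and DESeq2 called none. These counts of 0 were not stable to the libraries: for Atf4 knockout 3 were called lower without its treated replicate 3 and 4 without the 3 libraries low in Malat1, and for Cebpg knockout 2 without those 3. The count called lower in Rosa26 cells was 5 without treated Rosa26 replicate 1 or without treated Rosa26 replicate 3.

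The other 2 measured genes of the angiopoietin family moved against Angptl6. Angptl2 fell by 2.20 ± 0.37 and Angptl4, an inhibitor of lipoprotein lipase, by 0.78 ± 0.16 on the log2 scale in Rosa26 cells (edgeR adjusted p = 4.8e-05 and 0.00048). Both also fell in each knockout, and neither differed in drug effect at the threshold by edgeR or DESeq2, nor at an unadjusted p under 0.05.

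Among 6 other measured synaptotagmins and relatives, 1 was called higher and 3 lower with drug in Rosa26 cells (23.6% and 24.1% of all genes). Syt11 rose in Rosa26 cells from 19.4 ± 0.877 to 31.9 ± 2.88 CPM (log2 change 0.72 ± 0.09, edgeR adjusted p = 1.5e-06), and by 0.65 ± 0.09 and 0.52 ± 0.09 in Atf4 and Cebpg knockout cells. Sytl2, which takes part in docking of cytotoxic granules, fell by 1.03 ± 0.15 on the log2 scale in Rosa26 cells and had -0.13 ± 0.15 in Atf4 knockout cells, a difference of 0.90 ± 0.21 (edgeR adjusted p = 0.0136).

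The neuronal calcium sensors and partners of NCS-1 had 6 of 9 other measured genes called higher with drug in Rosa26 cells and none lower. Of all genes, 23.6% were called higher and 24.1% lower. At an unadjusted p under 0.05, 1 of the 9 was lower, and by DESeq2 none was. Their median log2 change was 0.43 against 0.02 over all genes. At an adjusted p under 0.05 by edgeR, 3 of the 9 were called higher in each knockout, where 23.1% of all genes were. Kcnip2, a potassium channel partner of the same EF-hand family, rose from 0.903 ± 0.176 to 12.2 ± 1.66 CPM in Rosa26 cells, from 2.29 ± 1.07 to 19.4 ± 0.908 in Atf4 knockout and from 2.15 ± 0.497 to 16.4 ± 1.75 in Cebpg knockout cells. Its log2 changes were 3.75 ± 0.25, 3.08 ± 0.21 and 2.92 ± 0.22 (edgeR adjusted p = 1.8e-10, 3.0e-10 and 6.6e-10). Itpr1 and Itpr2, receptors that release calcium from the endoplasmic reticulum, rose by 0.74 ± 0.10 and 0.60 ± 0.10 in Rosa26 cells (edgeR adjusted p = 3.1e-06 and 6.8e-05). By edgeR none of the 9 was called for a difference in drug effect in either knockout. At an unadjusted p under 0.05 it was 2 in each knockout, and DESeq2 called 1 in Atf4 knockout and 0 in Cebpg knockout cells. For Atf4 knockout the count called higher became 2 without its treated replicate 3 or without the 3 libraries low in Malat1. It became 1 without treated Rosa26 replicate 2, treated Atf4 knockout replicate 2 or treated Cebpg knockout replicate 2, and 1 with RLE (relative log expression) scaling or a filter of at least 1 CPM in 3 libraries. The count called lower became 1 without treated Rosa26 replicate 2, without treated Atf4 knockout replicate 2 or without the 3 libraries.

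Of 7 other measured laminins and laminin receptors, 2 were called higher and 4 lower with drug in Rosa26 cells (23.6% and 24.1% of all genes). Itga6, the α6 integrin subunit that binds laminin, fell by 0.44 ± 0.07 on the log2 scale, Dag1, dystroglycan, by 0.53 ± 0.10, and Lamb3, a laminin β chain, by 0.43 ± 0.10 (edgeR adjusted p = 3.7e-05, 0.00013 and 0.00101). Lamc1, the γ chain that pairs with α5, rose by 0.28 ± 0.09 (edgeR adjusted p = 0.0158) and Itga7 by 0.88 ± 0.35 (0.0441). Both calls were weak, ending without any 1 of 4 libraries for Lamc1 (adjusted p up to 0.0814) and of 9 for Itga7 (up to 0.169). Of 5 measured genes of other basement membrane and matrix proteins, Sdc4, a syndecan, rose by 5.01 ± 0.52 on the log2 scale and Ssc5d by 3.41 ± 0.40, whereas Fbln1 fell by 2.14 ± 0.18 and Sdc1 by 1.88 ± 0.47 (edgeR adjusted p = 1.3e-07, 7.0e-07, 8.8e-09 and 0.00235). These 4 moved the same way in both knockouts, and of the 5 none was called for a difference in drug effect by edgeR or DESeq2, or had an unadjusted p under 0.05.

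**Figure D4:**
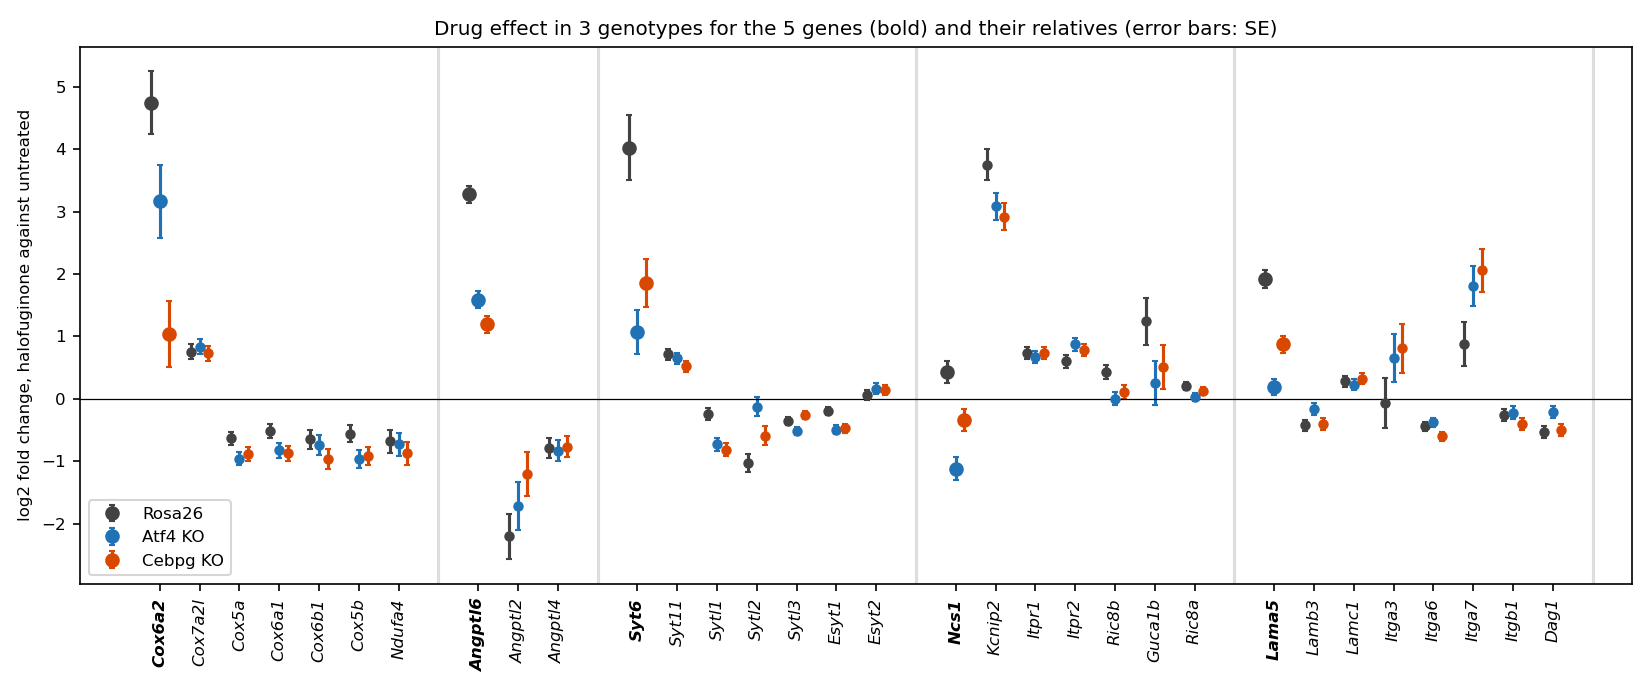
Log2 fold change with halofuginone in Rosa26, Atf4 knockout and Cebpg knockout cells for the 5 genes and named relatives, with bars of 1 standard error. Cox6a2 had 4.75, 3.16 and 1.04, its relative Cox6a1 -0.51, -0.82 and -0.87, and Kcnip2 3.75, 3.08 and 2.92. Some relatives also differed by genotype: edgeR called a difference for Sytl2 (-1.03, -0.13 and -0.59) in Atf4 knockout cells. It called one for Sytl1 (-0.24, -0.72 and -0.81) in Cebpg knockout cells.

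A list of 25 known ATF4 pathway genes, of which 24 were measured and the other was not analysed here, gives the frame for these responses. In Rosa26 cells 20 of the 24 were called higher with drug and 2 lower (23.6% and 24.1% of all genes). The median log2 change of the 24 was 1.07 against 0.02 over all genes. In Atf4 knockout cells 10 were called higher and 4 lower (23.1% and 26.5% of all genes), and in Cebpg knockout cells 11 and 4 (23.1% and 28%). With drug, 21 of the 24 were called lower in Atf4 knockout and 19 in Cebpg knockout than in Rosa26 cells. Of all genes, 16.3% and 13.1% were called lower. None of the 24 was called higher (11.8% and 5.74% of all genes were), nor was any by DESeq2 or at an unadjusted p under 0.05. The drug effect was called smaller for 16 in Atf4 knockout (12 to 18 with 1 library left out) and for 14 in Cebpg knockout cells, against 4.01% and 2.1% of all genes.

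Trib3 rose by 2.64 ± 0.11 on the log2 scale in Rosa26 cells, 1.31 ± 0.11 in Atf4 knockout and 0.60 ± 0.11 in Cebpg knockout cells, differences of -1.33 ± 0.16 and -2.04 ± 0.16 (edgeR adjusted p = 5.4e-05 and 7.1e-07). Asns, asparagine synthetase, rose from 43.0 ± 2.11 to 86.8 ± 7.09 CPM in Rosa26 cells, and had 21.3 ± 1.68 and 21.5 ± 2.03 CPM untreated and treated in Atf4 knockout cells and 25.8 ± 0.757 and 29.9 ± 2.38 CPM in Cebpg knockout cells. The untreated levels of Asns were thus lower in the knockouts than in Rosa26 cells, where those of Angptl6 overlapped with the control. Those of Cox6a2 overlapped too, but its counts were too few to compare with Asns. Its untreated ratio of Atf4 knockout to Rosa26 was 0.63 (95% interval 0.19 to 1.92, counting error only). Over the list, 13 of 24 were called lower in untreated Atf4 knockout cells and 1 higher, the opposite side from Syt6 and Lama5, and 5 and 1 in untreated Cebpg knockout cells (14.3% and 2.29% of all genes were lower). Chac1, a glutathione-degrading enzyme, had a difference in drug effect of -1.29 ± 0.40 in Atf4 knockout cells that missed the threshold (edgeR adjusted p = 0.0603).

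Neighbouring genes were examined for shared reads. The annotated span of Syt6 overlaps Atg4a-ps, a pseudogene, and that of Lama5 overlaps Mir7005, a microRNA, neither of which was analysed here. The annotated span of Angptl6 overlaps that of Shfl, an antiviral factor, on chromosome 9. The library kit kept the strand, whereas the strand setting of the counting is not given in the sources used here, so counts of this pair are uncertain. Shfl rose with drug from 27.7 ± 2.43 to 57.7 ± 4.37 CPM in Rosa26, from 42.6 ± 2.63 to 51.4 ± 2.57 in Atf4 knockout and from 36.7 ± 3.50 to 53.7 ± 2.21 in Cebpg knockout cells. Its drug effect was smaller by -0.79 ± 0.12 in Atf4 knockout cells (edgeR adjusted p = 0.000513) and by -0.51 ± 0.12 in Cebpg knockout cells (0.0256, a call that ended without any 1 of 5 libraries, with adjusted p up to 0.12). Unlike Angptl6, Shfl had higher untreated levels in the knockouts, and its treated means lay between 51.4 and 57.7 CPM. Ppan, on the other side of Angptl6, fell in Rosa26 cells by 0.39 ± 0.07 on the log2 scale, and Adrm1, next to Lama5, by 0.38 ± 0.09 (edgeR adjusted p = 0.000102 and 0.00168). Hmcn2, next to Ncs1, had a log2 change of 0.46 ± 0.24 that missed the threshold (edgeR adjusted p = 0.127), as did 9130023H24Rik, next to Cox6a2, with -0.28 ± 0.18 (0.209).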

How the data were processed

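The authors deposited 1 table of raw counts per gene for 18 libraries, in whole numbers. Per the submitters' processing notes, the tools used were FastQC, MultiQC, Trimmomatic, STAR, HTSeq and edgeR, on build GRCm39. For versions and the strand setting, nothing is given in the sources used here. The table holds 14695 genes, all of which were tested. Of 449 blank gene names, 431 were filled from the annotation by gene identifier. Libraries were scaled by TMM and fitted with 6 group terms by the edgeR 4.0.16 quasi-likelihood test (limma 3.58.1, R 4.3.3), and p-values were adjusted by Benjamini-Hochberg over all genes, called under 0.05. CPM are TMM-scaled. The test was checked on simulated data. Standard errors were derived from the log2 fold change and its F value. The ratios of summed counts have exact 95% intervals. DESeq2 1.42.0, other scalings, a filter, a replicate block and omitted libraries were alternatives, and running them on the counts among induced genes and on 3 muscle markers was chosen after seeing the data.

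The members and lists were chosen with earlier results of these data known. The text names the 5 genes; every measured relative up to 8 a family, and above that up to 6 with the lowest p in Rosa26 cells; Trib3, Asns, Ddit3, Atf5, Slc6a9 and Chac1; for each of the 5 genes the 3 nearest profiles with at least 1 CPM (log2 CPM with a prior count of 2, predicted names left out); annotated neighbours; and the highest gene of each marker list. Of erythroid and platelet markers, 3 of 8 were measured, with a summed level of 3.03 to 12.6 CPM. RefSeq GRCm38.p6 and GENCODE M21 gave promoters, neighbours and exon lengths only, since their build is not that of the counts.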

Additional observations from a re-analysis of the deposited data

Results flagged for a closer look

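The effect of halofuginone differed between a knockout and Rosa26 cells for 8 of the named relatives, ATF4 pathway genes and neighbours, by the interaction term of the edgeR fit with adjustment over all genes. The 5 genes themselves are not listed, since they were picked for this difference, and groups of 3 libraries were not tested for outlying samples.

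In Atf4 knockout cells the difference on the log2 scale was -1.82 ± 0.20 (standard error) for Atf5 (edgeR adjusted p = 2.9e-05), -1.36 ± 0.28 for Slc6a9 (0.00483), -1.33 ± 0.16 for Trib3 (5.4e-05), -1.002 ± 0.123 for Asns (5.6e-05) and -0.79 ± 0.12 for Shfl (0.000513). Ddit3, a stress transcription factor, had -1.09 ± 0.30 (edgeR adjusted p = 0.0367), a call that ended without any 1 of 9 libraries, with adjusted p up to 0.111. Sytl2 had a difference of 0.90 ± 0.21 (edgeR adjusted p = 0.0136), the only one of these with the opposite sign.

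In Cebpg knockout cells the difference was -2.13 ± 0.21 for Atf5 (edgeR adjusted p = 5.8e-06), -2.04 ± 0.16 for Trib3 (7.1e-07), -1.87 ± 0.25 for Slc6a9 (0.000187), -0.80 ± 0.12 for Asns (0.000683) and -0.51 ± 0.12 for Shfl (0.0256). Sytl1, a synaptotagmin-like protein, had -0.57 ± 0.14 (edgeR adjusted p = 0.0373), a call that ended without any 1 of 10 libraries, with adjusted p up to 0.104.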

How the results depend on the processing

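No called log2 fold change of a named gene, and no difference of drug effects of the 5 genes, changed sign under the alternatives run. Of other log2 differences of the 5 genes, all within 1 standard error of 0, 3 changed sign: Cox6a2 in untreated Atf4 knockout cells (-0.64, 0.08 without Rosa26 untreated replicate 1), Angptl6 in untreated Cebpg knockout cells (0.11, -0.03 without Cebpg knockout untreated replicate 1) and Lama5 in treated Atf4 knockout cells (-0.07, 0.08 without Atf4 knockout treated replicate 3 and 0.05 without the 3 libraries below). With relative log expression (RLE) scaling, the median of all genes in untreated cells went from 0.0182 to -0.00906 in Atf4 knockout and from 0.0102 to -0.0203 in Cebpg knockout cells. The numbers of genes called changed by over 1.5 times as follows. In untreated Cebpg knockout against Rosa26 cells, 735 genes were called, against 1536 with RLE scaling, 1533 with a filter of at least 1 CPM in 3 libraries, 1991 by DESeq2, 3929 without the 3 treated libraries low in Malat1 (1 of each genotype) and 203 to 2638 with 1 library left out. Without those 3 libraries, 6158 genes against 3827 were called in untreated Atf4 knockout cells. For the drug effect in Atf4 knockout minus Rosa26, 943 genes were called, against 1499 by DESeq2, 2194 without the 3 libraries and 650 to 1479 with 1 left out. For Cebpg knockout minus Rosa26 these were 363, 629, 1051 and 210 to 679. Between the knockouts, 2 were called, against 11 with upper-quartile scaling, 40 by DESeq2, 63 without the 3 libraries and 1 to 11 with 1 left out. Treated Cebpg knockout against Rosa26 gave 1775 to 3679 with 1 left out (2773 with all). The causes were not tested.

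Scaling moved the share of higher among called genes. It was 37.5% for the drug effect difference in Atf4 knockout cells and 59.0% with RLE, and 15.2% in Cebpg knockout cells against 40.7% (RLE) and 33.1% (upper-quartile scaling). In untreated Cebpg knockout cells it was 54.1% against 26.2% with RLE, and in treated ones 30.4% against 50.7% with upper-quartile scaling. In Atf4 knockout cells it was 44.9% against 57.6% untreated and 41.9% against 52.2% treated, with upper-quartile scaling. The median of all genes moved by over 0.1 only for the drug effect in Cebpg knockout cells with upper-quartile scaling, by 0.108 on the log2 scale.

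With 1 library left out, the difference of drug effects in Atf4 knockout cells ranged from -2.31 to -0.66 for Cox6a2, -3.75 to -2.40 for Syt6 and -1.85 to -1.53 for Lama5, and in Cebpg knockout cells from -4.43 to -3.30 for Cox6a2 and -2.96 to -1.62 for Syt6. The call for Shfl in Cebpg knockout cells also ended with RLE or upper-quartile scaling or the filter (edgeR adjusted p = 0.0518 to 0.0538).

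Replicate numbers did not pair the libraries: over 45 same-numbered pairs of groups, deviations from the group means correlated with r from -0.687 to 0.527 (median -0.00525), 9 pairs were over 0.1, and 4 of 18 libraries correlated best with their own number. With a replicate block, the differences of drug effect were -1.55, -1.69, -2.91, -1.56 and -1.72 in Atf4 knockout cells for Cox6a2, Angptl6, Syt6, Ncs1 and Lama5, and -3.74, -2.08, -2.20, -0.77 and -1.05 in Cebpg knockout cells. The block gave 783 called genes for Atf4 and 273 for Cebpg knockout cells. It ended the calls for Ddit3, Sytl1 and Itga7 (edgeR adjusted p = 0.0646, 0.0706 and 0.0563). Depth limits Cox6a2 and Syt6, whose untreated Rosa26 libraries held at most 6 counts.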
